A study of Mus musculus with 12 samples.

Results

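Troponin is the calcium switch of the striated muscle thin filament. It has 3 subunits. Troponin C binds calcium, troponin I holds back the interaction of actin with myosin, and troponin T anchors the complex to tropomyosin. Troponin I and troponin T each have separate genes for cardiac, slow skeletal and fast skeletal muscle. Troponin C has 1 gene for cardiac and slow skeletal muscle and 1 for fast skeletal muscle. The fetal heart expresses the slow skeletal troponin I gene Tnni1, and the cardiac gene Tnni3 takes its place around and after birth, which makes the balance of these genes a common measure of heart muscle maturation. The 8 troponin genes described here were Tnni1, Tnni2 and Tnni3 (subunit I, slow, fast and cardiac), Tnnt1, Tnnt2 and Tnnt3 (subunit T, slow, cardiac and fast), and Tnnc1 and Tnnc2 (subunit C, cardiac with slow, and fast). They were taken by symbol from the platform annotation, and all 8 were present, with 1 probe each, among the 17742 named genes of the array.

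Hearts of mice at postnatal day 8 on a C57bl/6 X 129 hybrid background were profiled on 12 one-colour (Cy5) oligonucleotide arrays. Of 4 biological samples, 2 were labelled Salv CKO, a conditional mutant of Salvador (Sav1), and 2 Control, labelled wild-type. Each was hybridised to 3 technical arrays, which were averaged and count as 1 replicate. Salvador is a scaffold of the Hippo kinase pathway, and the study asked which cardiac genes that pathway regulates. The Cre driver, the deleted part of Sav1 and the number of animals in a sample were not given in the sources used here. While 1 label field calls the tissue embryonic, the stage field says P8. The Sav1 probe did not follow the labels: it averaged 240 and 433 intensity units in Salv CKO 1 and 2, against 439 and 252 units in Control 1 and 2. Whether that probe lies in the deleted part is not known, so each sample is called by its label only, and every direction below is that of the labels.

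Levels are given as log2(intensity + 1) after quantile normalization, and differences as Salv CKO minus Control on that scale. The brightness of a probe depends on the probe as well as on the transcript, so levels are compared between samples and never between genes. In a whole-heart sample, fewer muscle cells and less troponin RNA per muscle cell cannot be told apart. The tissue label fitted its markers: the 6 measured of 12 heart muscle marker genes (Actc1, Pln, Nppa, Mb, Csrp3 and Hrc) had mean intensities from 6557 to 44915, while array medians ran from 58 to 88. Myh6 and Myl2 were not named in the annotation used here.

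The promoters of the slow genes whose levels parted the labelled groups, and of the cardiac gene of the same subunit, are shown first, to put the sequences beside the values that follow. They are the 250 bases before an annotated start, from RefSeq on GRCm38.p6, read 5′ to 3′ on the strand of the gene. They span chr1:135799171-135799420 on the plus strand (Tnni1), chr7:4522529-4522778 on the minus strand (Tnni3), chr7:4515976-4516225 on the minus strand (Tnnt1) and chr1:135836084-135836333 on the plus strand (Tnnt2). That start is not always the outer end of the gene. The Tnni1 window lies inside the annotated gene, which begins at chr1:135783033. The Tnni3 and Tnnt2 windows overlap their genes, which begin at chr7:4522718 and chr1:135836315 on their strands. Capitals mark exact matches to the motif letters given below.
Tnni1: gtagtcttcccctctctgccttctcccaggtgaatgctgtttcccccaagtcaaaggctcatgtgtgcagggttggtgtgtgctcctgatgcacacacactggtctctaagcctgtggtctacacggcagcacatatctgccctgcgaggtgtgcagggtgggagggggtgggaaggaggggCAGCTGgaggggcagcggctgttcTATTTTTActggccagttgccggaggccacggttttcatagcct
Tnni3: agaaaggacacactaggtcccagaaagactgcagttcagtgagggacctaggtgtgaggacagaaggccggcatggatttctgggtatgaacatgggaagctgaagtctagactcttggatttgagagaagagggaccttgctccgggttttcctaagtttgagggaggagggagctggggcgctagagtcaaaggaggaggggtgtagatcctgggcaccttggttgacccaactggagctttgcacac
Tnnt1: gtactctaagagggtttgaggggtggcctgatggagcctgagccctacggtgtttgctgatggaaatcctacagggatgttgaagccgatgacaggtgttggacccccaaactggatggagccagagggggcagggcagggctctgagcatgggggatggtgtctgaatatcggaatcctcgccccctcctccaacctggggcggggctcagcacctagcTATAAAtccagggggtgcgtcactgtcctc
Tnnt2: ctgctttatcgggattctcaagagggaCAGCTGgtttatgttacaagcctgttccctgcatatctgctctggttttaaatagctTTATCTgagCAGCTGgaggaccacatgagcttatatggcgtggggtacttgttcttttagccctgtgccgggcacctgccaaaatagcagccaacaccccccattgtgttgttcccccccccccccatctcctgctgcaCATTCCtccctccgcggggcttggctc

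The letters GGAATG were searched as the core of the site of TEAD, the DNA-binding partner of the Hippo effectors Yap1 and Wwtr1. The letters TAAAAATA stood for the core of an MEF2 site, AGATAA for the site of GATA factors and CAGCTG for a myogenic E-box, all on both strands. The letters TATAAA, for a TATA box, were searched on the strand of the gene. Positions count back from the start, -1 being the base before it. In Tnni1 an E-box began at -68 and an MEF2 core, on the opposite strand, at -44. Of 32817 mouse promoters of the same length, 2.46% held the MEF2 letters and 13% the E-box letters. In Tnnt1 only a TATA box was found, at -30 (7.6% of promoters). The Tnnt2 promoter held a TEAD core on the opposite strand at -27 (12.6% of promoters), with E-boxes at -223 and -157 and a GATA motif on the opposite strand at -166 (9.99% of promoters). In the Tnni3 window none of these letters was found, which says only that they are not in this window. These positions are those of the printed window, the first of 2 listed for Tnni1 and for Tnnt2. From the other Tnni1 start the same E-box and MEF2 core lay at -158 and -134, and the other Tnnt2 window held no match. Of the other genes, Tnnc1 held a TEAD core at -58 and Tnnc2 no match. Promoters of 6 of the 8 genes were in the table used here, and Tnni2 and Tnnt3 had none. A match of letters is not evidence of a bound site. In gene order Tnni3 lies next to Tnnt1, while Tnni1 and Tnnt2, and likewise Tnni2 and Tnnt3, lie with 1 coding gene between them (Lad1 and Lsp1).

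Among the troponin I genes, slow skeletal Tnni1 was higher in the samples labelled Salv CKO, and cardiac Tnni3 overlapped between the groups. Tnni1 stood at 14.95 and 14.80 in Salv CKO 1 and 2, against 14.40 and 14.05 in Control 1 and 2. The mean was 14.87 ± 0.11 in Salv CKO and 14.23 ± 0.25 in Control (SD, n = 2 each), a difference of 0.65 ± 0.24 (SE) or 1.57-fold, with a 95% confidence interval from 1.01-fold to 2.43-fold. Its unadjusted p was 0.047 in limma's fit across all probes, and its adjusted p was 0.998, so it did not pass the threshold of 0.05. The groups did not overlap in samples or in single arrays: the deposited intensities were 28113, 28739 and 29191 in Salv CKO 1 and 30192, 31732 and 34437 in Salv CKO 2, against 22644, 21680 and 22920 in Control 1 and 16724, 16239 and 16688 in Control 2. The step between the lowest Salv CKO and the highest Control sample, 0.39, was about as large as the step of 0.35 between both Control samples. The Salv CKO samples, 0.15 apart, overlapped in their technical arrays, whose SD ran from 0.039 to 0.12 over the 4 samples.

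Cardiac Tnni3, the troponin I of the adult heart and the one with the N-terminal sites phosphorylated under adrenergic stimulation, had 15.09 and 15.24 in Salv CKO 1 and 2, against 15.35 and 15.11 in Control 1 and 2. The groups overlapped, with Control 1 highest and Salv CKO 1 lowest, and the arrays of Salv CKO 1 and Control 2 overlapped. The difference was -0.066 ± 0.22 (SE, limma adjusted p = 1.00), with a 95% interval from -0.66 to 0.53, and its sign turned without Salv CKO 1 or without Control 1 (0.0061 and 0.055). With centring on array medians it was -0.26. Fast skeletal Tnni2 had 7.97 and 8.21 in Salv CKO, against 7.80 and 7.97 in Control. Its mean intensities were 226 and 347 in Salv CKO 1 and 2, against 218 and 233 in Control 1 and 2, with Salv CKO 2 above the others. The difference of 0.20 ± 0.23 (limma adjusted p = 0.998) lay within the spread of the samples, and was 0.079 without Salv CKO 2.

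**Figure D1:**
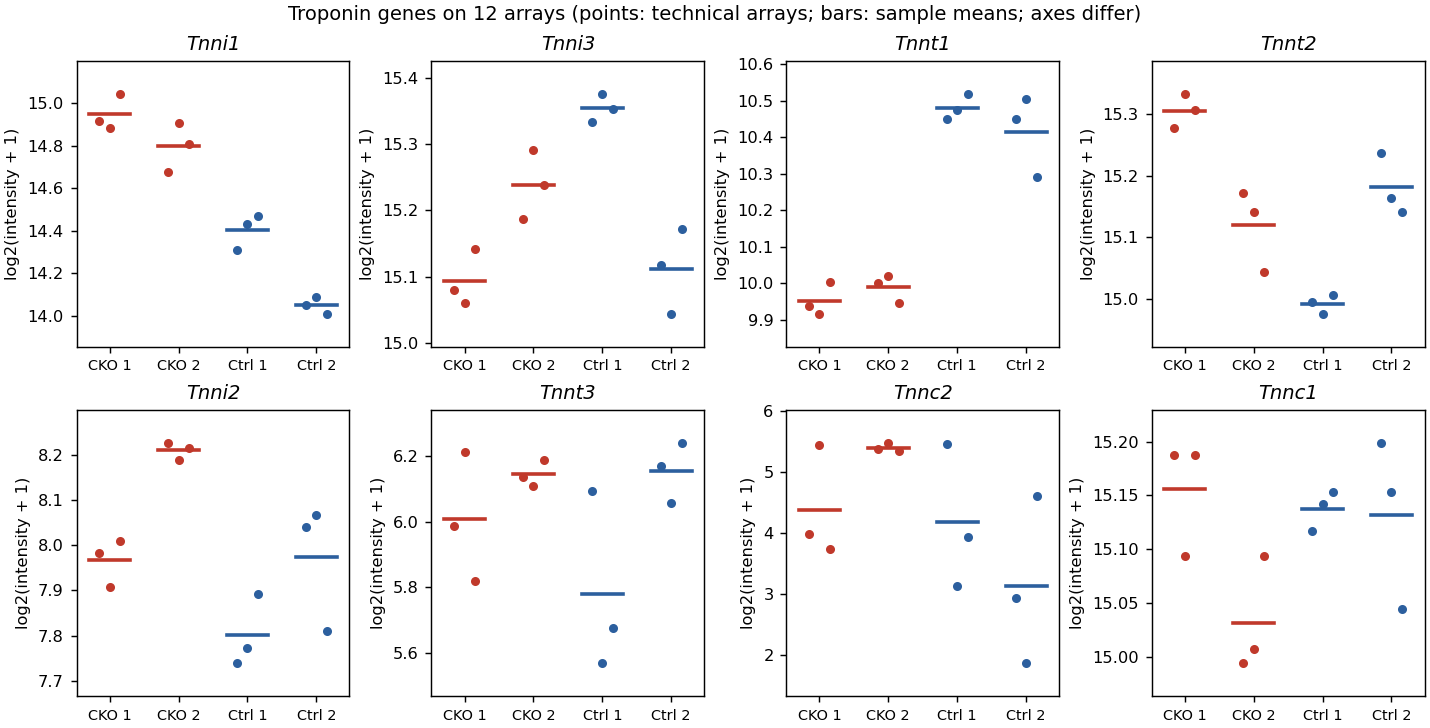
Levels of the 8 troponin genes, log2(intensity + 1) after quantile normalization, in Salv CKO 1 and 2 (red) and Control 1 and 2 (blue). Points are technical arrays, bars are sample means, and each panel has its own axis. Tnni1 and Tnnt1 are the genes in which all arrays of one labelled group lie on one side of the other.

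Among the troponin T genes, slow skeletal Tnnt1 was lower in the samples labelled Salv CKO, opposite to its slow counterpart Tnni1. Tnnt1 stood at 9.95 and 9.99 in Salv CKO 1 and 2, against 10.48 and 10.41 in Control 1 and 2. The means were 9.97 ± 0.026 in Salv CKO and 10.45 ± 0.047 in Control (SD, n = 2 each), and the difference was -0.48 ± 0.21 (SE), with a 95% interval from -1.02 to 0.065. In limma the unadjusted p was 0.0725 and the adjusted p 0.998. All normalized arrays of the groups were apart, and the step of 0.42 between Control 2 and Salv CKO 2 exceeded the steps within the groups (0.037 in Salv CKO and 0.067 in Control), in both of which the technical arrays overlapped. The deposited intensities of Tnnt1, which carry the brightness of the whole array, were 817, 863 and 816 in Salv CKO 1 and 1226, 1118 and 1239 in Salv CKO 2, against 1607, 1444 and 1528 in Control 1 and 1296, 1240 and 1183 in Control 2. On that scale the arrays of Salv CKO 2 and Control 2 overlapped, and the separation of these samples appears after normalization.

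Cardiac Tnnt2, the troponin T of embryonic and adult heart, had 15.31 and 15.12 in Salv CKO, against 14.99 and 15.18 in Control. The order was Salv CKO 1, Control 2, Salv CKO 2 and Control 1, so the groups overlapped, and the middle 2 samples did not differ beyond their technical arrays. The difference was 0.13 ± 0.22 (SE, limma adjusted p = 0.998), and -0.079 with centring on array medians in place of quantile normalization. The single probe does not tell the splice forms of Tnnt2 apart. Fast skeletal Tnnt3 was dimmer, at intensities from 39 to 91, with levels of 6.01 and 6.14 in Salv CKO, against 5.78 and 6.15 in Control. Its difference of 0.11 ± 0.24 (limma adjusted p = 0.998) was -0.080 without Control 1 and 0.31 without normalization.

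Of the troponin C genes, Tnnc1, which serves both heart and slow muscle, varied least among the 8 genes, by 0.12 over the 4 samples. It had 15.16 and 15.03 in Salv CKO, against 15.14 and 15.13 in Control, a difference of -0.041 ± 0.21 (SE, limma adjusted p = 1.00), or -0.22 with median centring. Neighbouring samples in its order overlapped in their technical arrays throughout. Fast skeletal Tnnc2 was near background, at intensities from 2 to 50. Its levels were 4.39 and 5.41 in Salv CKO, against 4.18 and 3.14 in Control, without overlap of the sample means. Single arrays did overlap: they read 16, 49 and 12 in Salv CKO 1 and 45, 43 and 50 in Salv CKO 2, against 46, 7 and 12 in Control 1 and 6, 2 and 24 in Control 2. The technical SD reached 1.38, more than the difference of 1.24 ± 0.52 (SE, limma adjusted p = 0.998), which was 0.73 without Salv CKO 2, 0.72 without Control 2 and 0.63 at a pseudocount of 16.

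Over the 8 genes, 0 passed an adjusted p of 0.05 in limma, as did 0% of the 26423 probes on the array. At an unadjusted p under 0.05 there was 1 gene, Tnni1, where the share over all probes was 3.97%, or 1.95% counting higher probes alone. The 4 samples parted by label without overlap for 3 genes (Tnni1 and Tnnc2 higher, Tnnt1 lower), against 30.6% of all probes (14.8% higher and 15.8% lower), so that count is near the background. All 12 arrays parted for 2 genes, Tnni1 and Tnnt1, against 5.05% of all probes (2.33% higher and 2.72% lower). Differences were positive for 5 of 8, with a median of 0.12, where the median over all probes was -0.010 and the median absolute difference 0.21. Among the 299 probes with a mean intensity over 10000, whose median absolute difference was 0.092, the difference of Tnni1 was reached or exceeded in the same direction by 3, itself included. The 4 bright troponin probes (Tnni1, Tnni3, Tnnt2 and Tnnc1) spanned 16239 to 45593 over all arrays, below the 65474 that was the highest value in the table.

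**Figure D2:**
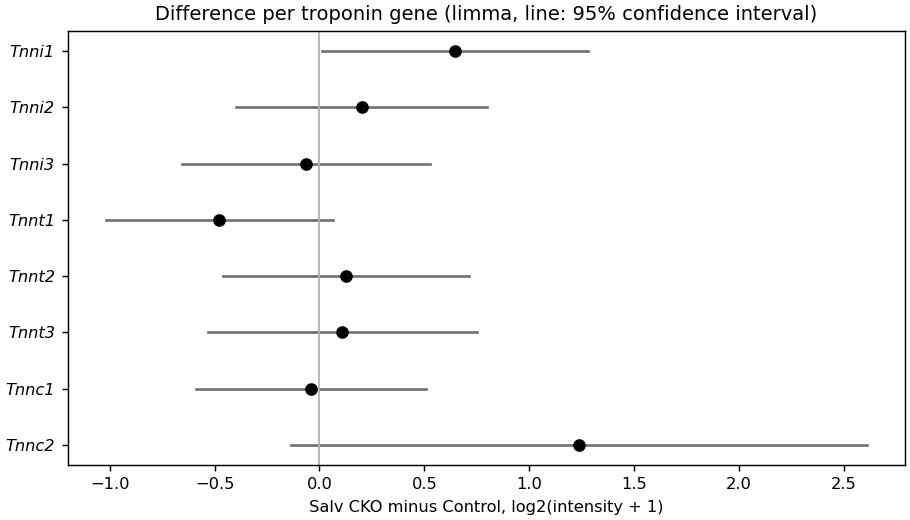
Difference between Salv CKO and Control for each troponin gene on the log2(intensity + 1) scale, from limma over all probes. Points are estimates and lines 95% confidence intervals, of which that of Tnni1, from 0.013 to 1.28, lies above 0 before adjustment and the others span 0.

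A scale factor common to an array cancels in the ratio between 2 troponin genes, and such ratios were compared between samples. The size of such a ratio carries the properties of both probes, so the difference between samples and not the value can be read. In the deposited intensities, Tnni1 over Tnni3 averaged 0.890 and 0.758 in Salv CKO 1 and 2, against 0.520 and 0.474 in Control 1 and 2. Over the technical arrays these ratios spanned 0.875 to 0.916 and 0.753 to 0.765 in Salv CKO, against 0.517 to 0.522 and 0.455 to 0.490 in Control. Every array labelled Salv CKO thus lay above every array labelled Control. On the normalized log2 scale the ratio was -0.29 ± 0.21 in Salv CKO and -1.01 ± 0.079 in Control (SD, n = 2 each), a difference of 0.71 or 1.64-fold. It stayed between 0.57 and 0.86 when any 1 of the 4 samples was left out, and between 0.70 and 0.73 over the other settings.

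The slow over cardiac ratio of troponin T differed in the other direction. Tnnt1 over Tnnt2 in the deposited intensities averaged 0.0229 and 0.0307 in Salv CKO 1 and 2, against 0.0461 and 0.0338 in Control 1 and 2, and the arrays of the groups did not overlap. The log2 ratio was -5.24 ± 0.16 in Salv CKO and -4.64 ± 0.18 in Control (SD, n = 2 each), a difference of -0.60. The ratio of the slow genes to each other, Tnnt1 over Tnni1, differed most among those with both probes above background. On the log2 scale it was -4.90 ± 0.13 in Salv CKO and -3.78 ± 0.20 in Control (SD, n = 2 each), a difference of -1.12, with all arrays apart. This ratio restates the Tnnt1 and Tnni1 differences given above, which had opposite signs and did not pass the threshold, and is not separate evidence.

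The ratios that involve fast genes gave no such separation. Tnni2 over Tnni3 differed by 0.27, without overlap of samples but with overlap of arrays, and by 0.060 without Control 1. Tnnt3 over Tnnt2 differed by -0.018 and Tnnt3 over Tnni2 by -0.093, both with overlapping samples, and the sign of Tnnt3 over Tnnt2 turned (0.20) with median centring and without normalization. Tnnc2 over Tnnc1 and over Tnni2 differed by 1.28 and 1.03, with arrays overlapping, and carry the near-background values of Tnnc2. In an exact two-sided permutation test, 2 samples against 2 cannot give a p below 0.333. That value was reached by 6 of the 8 ratios (adjusted over the 8, p = 0.444, exact permutation), so none could pass. It is reached whenever the samples part by label. Of those 6, all but Tnni2 over Tnni3 contain Tnni1, Tnnt1 or Tnnc2, which part the samples by themselves, so the count largely repeats those genes. No share over ratios of other genes was computed, for this count or for the separation of arrays.

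**Figure D3:**
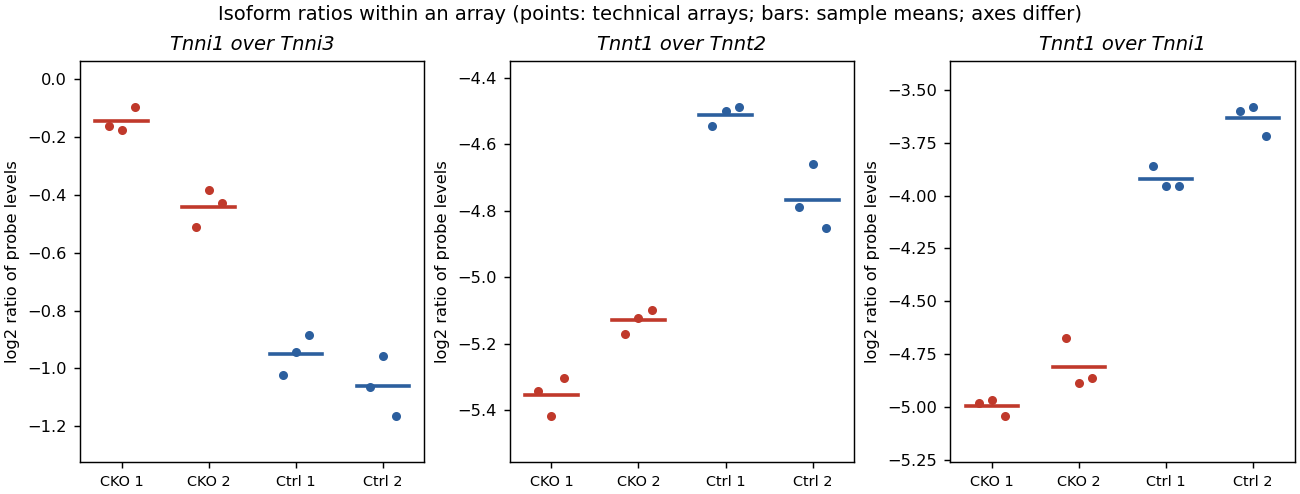
Log2 ratios of troponin probes within an array, in Salv CKO 1 and 2 (red) and Control 1 and 2 (blue). Points are technical arrays and bars sample means, and axes differ. Tnni1 over Tnni3 is higher on all Salv CKO arrays, while Tnnt1 over Tnnt2 and Tnnt1 over Tnni1 are lower on all of them.

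The genes with a pattern most like that of a troponin gene were looked for among 12763 probes with 1 gene symbol and a mean intensity of at least 50. The measure was the root mean square difference of centred log2 levels over the 4 samples, and it was applied to the troponin genes of at least that brightness whose level spanned 0.5 or more, which were Tnni1 (0.90) and Tnnt1 (0.53). Nearest to Tnni1 were Fam155a (0.041), Cdca3 (0.053), Rbck1 (0.063), Pimreg (0.064) and Ttk (0.065). Cdca3, a trigger of mitotic entry, had levels of 10.03 and 9.85 in Salv CKO, against 9.44 and 9.22 in Control. Ttk, the spindle checkpoint kinase gene, had 8.11 and 8.13 in Salv CKO, against 7.60 and 7.31 in Control. Nearest to Tnnt1 were Lpgat1 (0.032), Gpatch4 (0.033), Higd1b (0.037), Calml4 (0.038) and Ebf1 (0.039). Ebf1, a transcription factor gene of B cells and fat cells, had 8.19 and 8.13 in Salv CKO, against 8.63 and 8.62 in Control. With 4 samples many probes share any given pattern, and these names are a description only.

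The partners of troponin on the thin filament, actins, tropomyosins, tropomodulins and leiomodins, were measured by 16 of 17 listed genes. None passed (limma, smallest adjusted p = 0.998), 5 of 16 had a positive difference and the median was -0.049, where 46.9% of the 17742 named genes were positive with a median of -0.020. Unadjusted p was under 0.05 for 2, both lower, where 1.77% of all named genes were lower and 1.54% higher at that level. Acta1, skeletal actin, which the fetal heart also uses, had 9.46 and 9.92 in Salv CKO, against 11.08 and 10.84 in Control, a difference of -1.27 ± 0.27 (SE). The groups of Acta1 stood apart by more than the spread within them, in the direction of Tnnt1 and opposite to Tnni1. Actc1, the cardiac actin, had 15.35 and 15.35 in Salv CKO, against 15.37 and 15.62 in Control. Tpm1, the main cardiac tropomyosin and the partner of troponin T, differed by -0.014 at its brightest probe and by 0.34 at its next brightest. The leiomodin Lmod3, which builds thin filaments, differed by 0.44, and Nebl, a nebulin relative of the heart, by 0.74, with Control 1 lowest at 8.16. Lmod1 was dim, with intensities up to 35. The brightest Acta2 probe, which differed by -2.80, rested on 1 Control 2 array at 30349, where the next highest array read 29, and the other probe of Acta2 differed by 0.092.

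Of the thick filament genes, Ttn was the 1 of 13 listed with a named probe, and it had 14.20 and 14.31 in Salv CKO, against 14.18 and 14.28 in Control. The myosin genes Myh6 and Myh7, whose switch runs in parallel with that of troponin I in the mouse heart, are not analysed here, since neither had a named probe.

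Regulators that act on the troponin proteins were measured by 19 of 22 genes. None passed in limma, 8 were positive and the median was -0.074. Prkaca, the catalytic subunit of the kinase that phosphorylates Tnni3, had 14.09 and 13.96 in Salv CKO, against 14.16 and 14.11 in Control, a difference of -0.11. The atypical protein kinase C gene Prkcz had the smallest p of this list, at -0.59 ± 0.23 (SE), and was dim, with intensities up to 82. Prkg1 and Rock1 differed by -0.38 and -0.25. Trim63, a ubiquitin ligase that targets troponin I, differed by 0.28, without overlap of the groups. Ppp2r1a, a phosphatase scaffold, differed by 0.81, with Control 1 at 10.95 and the others from 12.29 to 12.61. Tnni3k, the cardiac kinase named for its binding to troponin I, differed by 0.14.

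Regulators of troponin T splicing were all measured, 12 of 12. None passed in limma, 5 were positive and the median was -0.0036. Rbfox1, a muscle and neuronal splicing factor, had 11.31 and 11.37 in Salv CKO, against 10.55 and 10.47 in Control. This difference of 0.83 ± 0.21 (SE, unadjusted p = 0.0123 in limma) was larger than the spread within either group, and the other 11 genes had an unadjusted p of 0.05 or more. Mbnl2 and Celf1, antagonists in the developmental splicing of Tnnt2, differed by -0.35 and 0.29, each without overlap. Celf2 differed by -0.53, with the groups overlapping, and Srsf1 by 0.29. Mbnl1 differed by -0.026.

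Transcription factors linked to troponin promoters were measured by 14 of 18 genes, 7 of them positive, with a median of -0.00048, and none passed in limma. Six4, a homeodomain factor of fast muscle genes, differed by -1.14 ± 0.26 (SE, unadjusted p = 0.0086 in limma), at intensities up to 94. Its mean intensities lay closer together than its log2 levels. They were 52 and 56 in Salv CKO 1 and 2, against 56 and 71 in Control 1 and 2. Hand2 and Tbx5, cardiac factors, differed by 0.58 and 0.13. Hand2 was lowest in Control 2, at 9.74, with the others between 10.37 and 10.68. The TEAD genes Tead1, Tead2 and Tead3 differed by 0.010, 0.090 and -0.18, and Tead4, at intensities up to 41, by 0.53. Mef2c and Gata4 differed by -0.085 and 0.13. Sox6, a repressor of slow muscle genes in skeletal muscle, differed by 0.24 with the groups overlapping.

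Thyroid hormone is linked to the switch from Tnni1 to Tnni3 in the rodent heart, and genes of its signalling were measured by 15 of 16. None passed in limma, 4 were positive and the median was -0.14. The receptor genes Thra and Thrb differed by -0.042 and -0.35, and both overlapped between the groups. Dio2, which makes the active hormone, had 7.29 and 7.62 in Salv CKO, against 8.18 and 7.64 in Control. Dio3, which inactivates it, differed by -0.33 at intensities up to 37. Rxrg, a retinoid X receptor gene, had 8.83 and 8.93 in Salv CKO, against 9.50 and 9.25 in Control, a difference of -0.50 ± 0.22 (SE). Rxra differed by 0.31, and by 0.16 at its other probe. Thrsp, a hormone-responsive gene of fat tissue, differed by -0.63 with the groups overlapping.

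**Figure D4:**
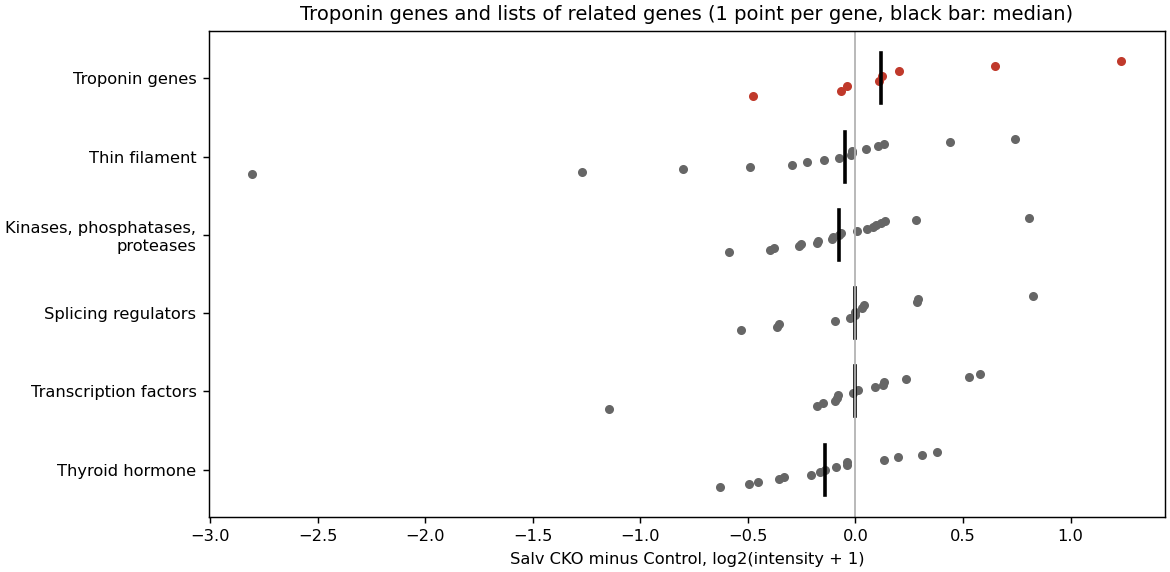
Differences between Salv CKO and Control, log2(intensity + 1), for the 8 troponin genes (red) and for the genes of 5 related lists (grey), 1 point per gene at its brightest probe. Black bars are medians, which run from -0.14 (thyroid hormone) to 0.12 (troponin). The point farthest to the left, at -2.80, is the Acta2 probe that rests on 1 array.

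Markers of other tissues were set beside these results. Of 20 fast and embryonic skeletal muscle markers, 7 had a named probe, and the defining genes Actn3, Atp2a1 and Pvalb stayed at or below 18, 9 and 11 on every array. Their summed intensity, the calcium-storage gene Casq1 left out, was 101 to 104 in Salv CKO, against 88 to 108 in Control. Casq1, which was the bright member, had mean intensities of 1278 and 4220 in Salv CKO 1 and 2, against 1481 and 1421 in Control 1 and 2, and was highest in the sample in which Tnni2 was highest. With Casq1 the sum was 1382 to 4320 in Salv CKO, against 1509 to 1589 in Control. Brown fat and adipocyte markers (6 of 6 measured, none at 0) summed to 15047 to 15799 in Salv CKO, against 17497 to 25125 in Control. Smooth muscle and pericyte markers (6 of 7) summed to 3216 to 4697, against 5764 to 13759, the upper value resting on the 1 Acta2 array, and Cnn1 was at background. Without Acta2 the smooth muscle sums were 3212 and 4690 in Salv CKO 1 and 2, against 5749 and 3638 in Control 1 and 2, and the groups overlapped. The fat marker Ucp1 had levels of 11.95 and 9.75 in Salv CKO 1 and 2, against 12.71 and 11.74 in Control 1 and 2. The fat marker sums parted the labelled groups, but most of each sum was Fabp4. Its mean intensities overlapped, at 10843 and 14358 in Salv CKO 1 and 2, against 16126 and 13373 in Control 1 and 2. Those of Ucp1 overlapped as well, at 3278 and 1019, against 7277 and 3130. By log2 level 0 of the 6 fat markers were higher and 4 were lower without overlap, against 15.8% of all probes lower. The 6 smooth muscle and pericyte markers gave the same counts, with Acta2, Tagln, Cnn1 and Cspg4 lower without overlap. Tagln, at intensities up to 47, had 3.72 and 3.18 in Salv CKO, against 5.68 and 5.22 in Control. Of the 6 heart muscle markers 3 (Actc1, Nppa and Hrc) were lower without overlap, as were 3 of the 8 fibroblast markers. The part of fat, smooth muscle or other cell content in the differences of Tnni1 and Tnnt1 was not tested. Heart muscle markers (6 of 12) summed to 161850 to 197140, against 182630 to 195170. The sums of fibroblast (8 of 8), endothelial (6 of 6), macrophage (6 of 6), erythroid (1 of 5), lung (4 of 4), thymus (6 of 6) and liver (3 of 4) markers overlapped between the groups. All these sums are of deposited intensities, which were not normalized and carry the brightness of the whole array. The brightest gene weighs most in a sum, as Dcn does among the fibroblast markers. Overlap of such sums does not show that cell content was alike.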

How the data were processed

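Total RNA of whole hearts was amplified, labelled with Cy5 and hybridised to oligonucleotide arrays, per the labels' protocols. The values are intensities, 1 per probe and array, in a table the authors deposited. Which scanner, background correction or normalization was used was not given in the sources used here. Deposited values ran from -10 to 65474, and array medians from 58 to 88. Genes were named through the platform annotation, which gave 20377 of 26423 probes 1 gene and left 6046 unnamed.

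Intensities were quantile normalized, negative results took the smallest value above 0, 1 was added as a pseudocount, and log2 values were averaged over the 3 technical arrays of a sample. Differences were fitted with limma 3.58.1 in R 4.3.3 (lmFit and eBayes) over all probes, 2 samples against 2, with Benjamini-Hochberg adjustment and a threshold of 0.05. The labels do not say how many animals a sample holds, so a p-value covers the spread of these samples, which may be technical. Where a gene had several probes, the brightest was used. Ratios were tested with an exact permutation test. The procedure was tested on simulated data. Figures were drawn with matplotlib 3.10.9.

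All 8 troponin genes are named, and from each related list the 5 with the smallest p plus Actc1, Acta1, Tpm1, Myh6 and Myh7. Other list genes with a value (Tnni3k, Prkaca, Mbnl1, Mef2c, Gata4, Tead1, Tead2, Tead3, Thra and Thrb) were chosen after their values were seen. The members and lists were chosen with earlier results of these data known. Equal sample numbers do not pair the samples: deviations of the samples numbered alike correlated at -0.42 over 14682 probes. Alternatives were array median centring, no normalization, a pseudocount of 16, technical medians, a filter on the dimmest 50% of probes, a replicate block, a random block over 12 arrays and leaving out each sample. The number of samples, 2 in each group, limits the precision.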

Additional observations from a re-analysis of the deposited data

How the results depend on the processing

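None of the 8 troponin genes passed in limma under the alternatives run (smallest adjusted p 0.108, for Tnnt1 in a fit of 12 arrays with a random block per sample). Over all probes 0 passed, against 2 with array median centring, 14 without normalization (where the median difference over all probes was 0.11, against -0.010) and 61 with the random block; at unadjusted p under 0.05 the 1048 probes became 323 without the dimmest 50%, 2202 with the random block, and 638 (without Salv CKO 1) to 2824 (without Control 2) with samples left out. Of the genes in the related lists, 2 passed in limma with the random block, Acta1 (adjusted p = 0.00378) and Rbfox1 (adjusted p = 0.00129). That fit takes the 12 technical arrays as observations, with a consensus correlation of 0.54 within a sample. Arrays of 1 sample thus count as partly separate replicates, and its passes overstate the replication. In the main limma fit of the 4 samples both genes had an adjusted p of 0.998. With array median centring (median over all probes -0.078) Tnnt2 differed by -0.079, Tnni3 by -0.26 and Tnnc1 by -0.22; without normalization Tnnt3 differed by 0.31. Under each of these settings the Tnnt3 over Tnnt2 ratio differed by 0.20. With 1 sample left out, the lone sample being assumed to vary like the other group, Tnni1 stayed between 0.47 and 0.82 and Tnnt1 between -0.51 and -0.44, while Tnni3 ran from -0.19 to 0.055 (0.0061 without Salv CKO 1), Tnnc1 from -0.10 to 0.022 and Tnnt3 from -0.080 to 0.30. The ratio differences then ran from 0.57 to 0.86 (Tnni1 over Tnni3), 0.060 to 0.47 (Tnni2 over Tnni3), -0.73 to -0.48 (Tnnt1 over Tnnt2), -0.18 to 0.14 (Tnnt3 over Tnnt2), 0.70 to 1.85 (Tnnc2 over Tnnc1), -1.27 to -0.98 (Tnnt1 over Tnni1), -0.20 to 0.0085 (Tnnt3 over Tnni2) and 0.43 to 1.64 (Tnnc2 over Tnni2). The cause was not tested. With the replicate block, 0 probes passed, 743 had an unadjusted p under 0.05, and the Tnni1 difference stayed 0.65, as the design is balanced. A crossed pairing, chosen after seeing the data, gave 0 and 1545 probes. The mean over all probes of a gene gave no other value, since each troponin gene had 1 probe. Signal near background limits Tnnc2 and Tnnt3.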
